A study of Mus musculus with 4 samples.

Results

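The TNF superfamily was followed in effector CD4 cells of the spinal cord (CNS) and of draining lymph nodes (dLN) at the onset of EAE, over 42 of the 23990 gene symbols measured. Members were taken by name alone. They are all symbols that begin with Tnfsf or Tnfrsf, together with Tnf, Lta, Ltb, Ltbr, Fas, Fasl, Cd40, Cd40lg, Cd27 and Cd70. They comprise 17 ligand genes, 1 read-through symbol that joins the neighbouring ligand genes Tnfsf12 and Tnfsf13, and 24 receptor genes.

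EAE models MS in mice, where immunization against the myelin protein MOG brings self-reactive CD4 cells into the CNS. All 4 libraries came from wild type C57BL/6 mice given MOG in complete Freund's adjuvant and pertussis toxin, 2 from CNS and 2 from dLN. CD44+CD4 cells were sorted from spinal cords and from dLN cells that had been pooled, and whether the 2 libraries of a tissue came from separate mice is not given, so p-values measure the spread between these libraries. By the study's methods, PMA and ionomycin were then given to the sorted cells; these agents act downstream of the T-cell receptor. The labels describe freshly sorted cells and name no stimulation, so the sources differ on this step. The age of the mice is not given in the sources used here. The comparison asks how CNS-infiltrating CD4 cells differ from effector CD4 cells of the periphery.

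Ligands of this family are mostly membrane proteins that act as trimers on a neighbouring cell, and some are also shed or secreted. Receptors with a death domain can lead to apoptosis, and most others recruit TRAF adaptor proteins and activate NF-κB and MAP kinases. The 4 soluble or decoy receptors of the list were counted in neither group. On CD4 cells the family covers help to B cells and dendritic cells through CD40L, costimulation through OX40, 4-1BB, GITR and CD27, lymphoid tissue organization through lymphotoxin, and cell death through FasL and TRAIL.

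The libraries held an estimated 18.25 M to 21.65 M fragments, read from the steps of low FPKM values. FPKM counts fragments per kilobase of a transcript relative to the number mapped in a library, and so allows levels of different genes to be compared. T-cell markers were present throughout, with each of the 14 listed markers in the tables at 1 FPKM or more in every library. The sort marker Cd4 was at 502 and 531 FPKM in CNS and at 82.0 and 66.7 FPKM in dLN. CNS replicate 2 stood apart in myeloid markers, whose summed level over 16 genes was 452 FPKM there, 29.1 FPKM in CNS replicate 1, and 4.69 and 4.05 FPKM in dLN. Of these genes, 9 and 11 were listed at 0 in the dLN libraries, among them Csf1r, Tyrobp and C1qa in both, and 1 (S100a8) in CNS replicate 1. Single markers of other cells were also called higher in CNS. They were Klrb1c of the CD8 T cell and NK cell list (log2 ratio 1.92), Cldn5 and Cdh5 of endothelium (1.67 and 1.11) and Gfap of astrocytes (1.27). Klrb1c was at 2.53 and 3.22 FPKM in CNS. Of the same list, Klra1 was listed at 0 in every library. Ncr1 and Klra7 were listed at 0 in CNS replicate 1 and at 0.581 and 1.06 FPKM in CNS replicate 2. Klra8 was at 0.0997 and 0.570 FPKM in CNS. Klrb1c alone was thus not read as a marker of NK cells. Pecam1 was called higher too (0.79), but its mean in dLN was 10.8 FPKM. There Cldn5 was listed at 0 and Cdh5 reached at most 0.0142 FPKM, so Pecam1 was not read as a marker of endothelium. The neural marker Mbp went the other way, with means of 46.6 FPKM in CNS and 56.6 FPKM in dLN. It was called lower in CNS (log2 ratio -0.28). The part of these other cell types in the members that rose was not tested. Y-linked RNA differed as well, with Ddx3y above 11 FPKM in CNS and listed at 0 in dLN, and sex, table and tissue cannot be told apart. In bulk RNA, fewer expressing cells and less RNA per cell cannot be told apart either.

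Lymph node cells carried far more ligand RNA than CNS cells, and the leading genes changed. The summed level of the 18 ligand symbols was 785 and 975 FPKM in CNS and 3574 and 4217 FPKM in dLN. In dLN the leading ligand was Tnfsf8, at 35.6% and 36.7% of that sum, followed by Cd40lg and Tnf. In CNS it was Ltb, at 42.2% and 43.9%, while Tnfsf8 held 1.57% and 1.64%. Receptor RNA summed to 601 and 777 FPKM in CNS and to 1558 and 1603 FPKM in dLN. Tnfrsf4 led in dLN with 54.4% and 59.5% of the receptor sum, and Tnfrsf18 led in CNS with 32.5% and 31.8%.

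**Figure D1:**
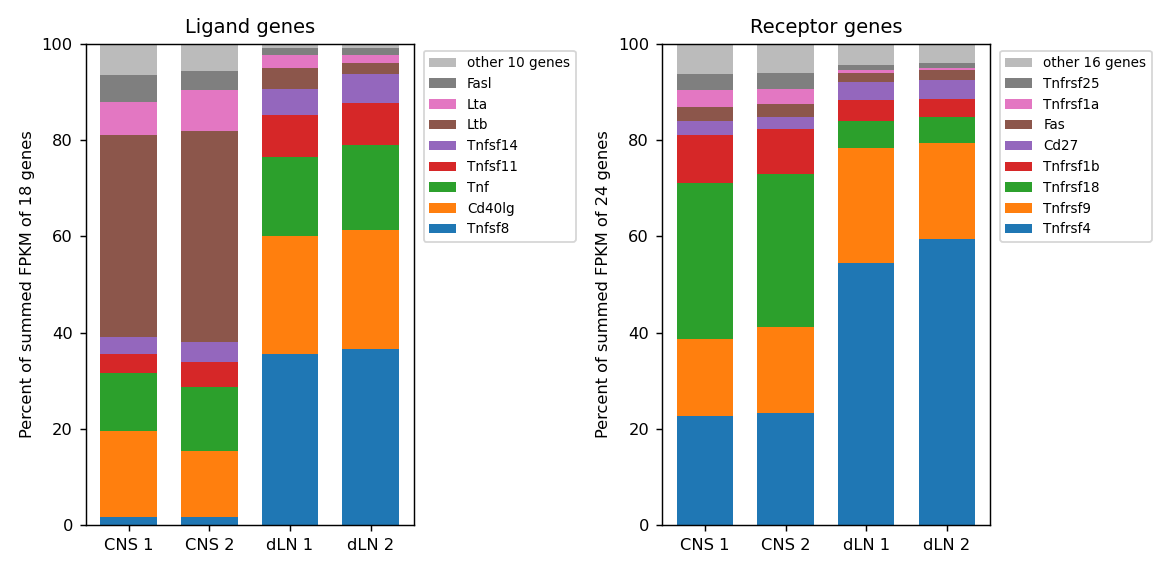
Share of each gene in the summed FPKM of 18 ligand symbols (left) and 24 receptor genes (right), in percent, with 1 stacked bar per library. Ltb fills 42.2% and 43.9% of the CNS ligand bars, Tnfsf8 35.6% and 36.7% of the dLN ones, and Tnfrsf4 more than any other receptor gene in dLN.

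Of the 42 members, 31 had a mean of at least 1 FPKM in CNS or dLN and were tested, as part of a limma fit of log2(FPKM + 1) over 10634 genes. Log2 ratios give CNS relative to dLN after adding 1 FPKM, and so understate the changes of low genes. Adjusted p-values are Benjamini-Hochberg values over all genes tested. At an adjusted p under 0.05, 9 of the tested members were higher in CNS, where 37.8% of all genes were, and 15 were lower, where 37.2% of all genes were. Together they made up 77.4% of the tested members, near the 74.9% of all genes called. Lower calls of 1 log2 unit or more made up 41.9% of the tested members (13 genes) against 18.2% of all genes, and higher ones 19.4% (6 genes) against 21.0%. These shares are a description and were not tested. The tissues did not overlap in 26 tested members, 83.9% against 89.4% of all genes. The median log2 ratio of the tested members was -0.36, against 0.05 over all genes. Of the 31 genes, 5 passed the filter through 1 tissue alone, so their values had to differ. Cd40, Cd70 and Tnfrsf13c passed through CNS, and Tnfsf4 and Tnfrsf21 through dLN.

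**Figure D2:**
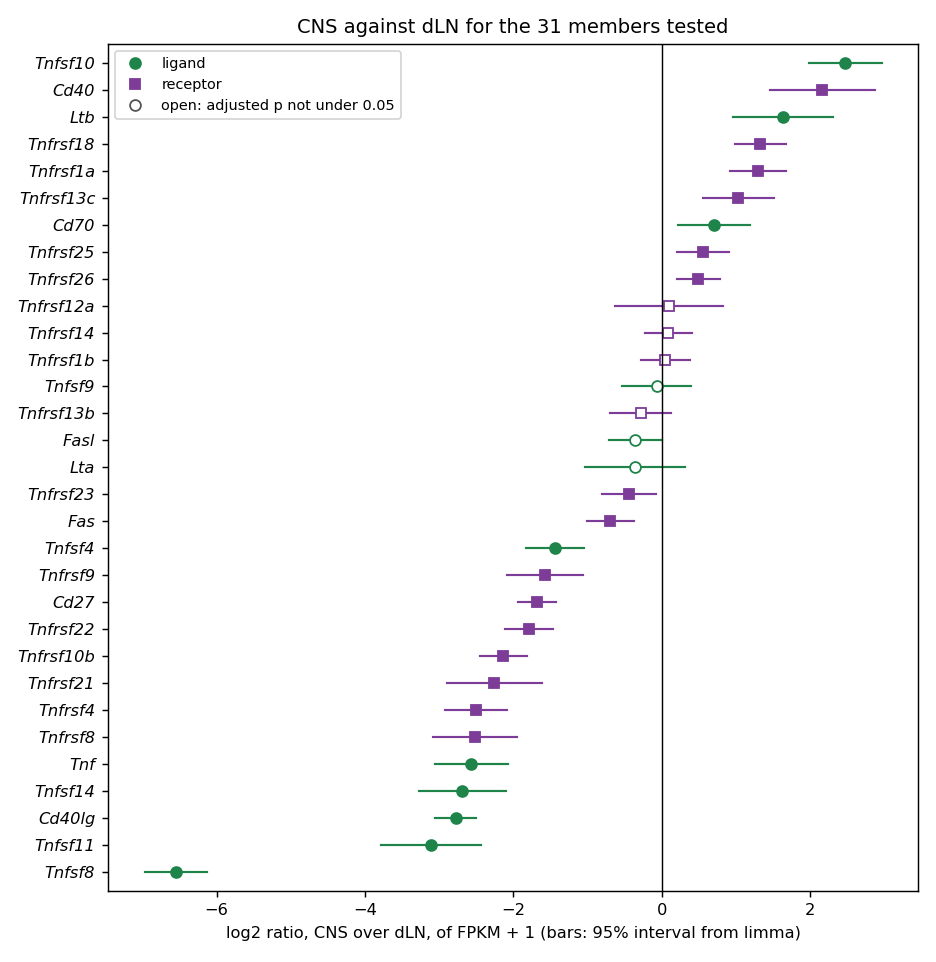
Log2 ratio of CNS over dLN on the FPKM + 1 scale for the 31 tested members, with 95% intervals from limma. Circles are ligands, squares receptors, and open symbols did not pass an adjusted p under 0.05. Tnfsf8 lies at -6.55, and Tnfsf10, Cd40 and Ltb lie highest, at 2.47, 2.16 and 1.63.

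Among the 12 tested ligands, 6 were lower in CNS, 3 were higher and 3 did not pass the test. Those called made up 75.0%, near the 74.9% of all genes. Of all genes, 37.2% were called lower and 37.8% higher in CNS, and the ligand counts were not tested against these shares. The 6 that fell were Tnfsf8, Tnfsf11, Cd40lg, Tnfsf14, Tnf and Tnfsf4. Tnfsf8 encodes CD30L, the ligand of CD30. It was at 12.3 and 15.9 FPKM in CNS and at 1272 and 1546 FPKM in dLN. Both CNS libraries lay far below both dLN libraries, and the ratio of the mean levels was 99.8 in favour of dLN. Its log2 ratio was -6.55 ± 0.16 (SE) at a limma adjusted p of 8.12e-05, the largest in size of any tested member. Tnfsf8 (Entrez gene 21949) lies on chromosome 4 from 63832824 to 63861284, in build mm10.

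Cd40lg encodes CD40L, through which helper T cells activate B cells and dendritic cells. Its level was 141 and 134 FPKM in CNS against 872 and 1036 FPKM in dLN. CNS cells kept a level well above 100 FPKM, but the tissues did not overlap. The mean of CNS was 138 ± 4.47 FPKM (SD, n = 2) and that of dLN 954 ± 116 FPKM (SD, n = 2), with a log2 ratio of -2.78 ± 0.11 (SE) at a limma adjusted p of 8.98e-05. Cd40lg is on the X chromosome. Xist, which is read from an inactive X, was listed at 0 and 0.0026 FPKM in CNS but reached 26.6 and 22.3 FPKM in dLN, and its part in this result was not tested.

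Tnf encodes the inflammatory cytokine TNF. Its libraries stood at 95.4 and 129 FPKM in CNS and at 589 and 745 FPKM in dLN. Again no CNS library reached a dLN library, and the log2 ratio was -2.57 ± 0.19 (SE) at a limma adjusted p of 0.000304. Tnfsf11, which encodes RANKL, a ligand that drives osteoclast and dendritic cell survival, was at 30.0 and 50.2 FPKM in CNS and 312 and 375 FPKM in dLN. Its log2 ratio was -3.11 ± 0.26 (SE) at a limma adjusted p of 0.000427. Tnfsf14 encodes LIGHT, which binds HVEM and the lymphotoxin β receptor. It was read at 27.4 and 40.7 FPKM in CNS and at 195 and 250 FPKM in dLN, a log2 ratio of -2.69 ± 0.23 (SE) at a limma adjusted p of 0.00043. In these ligands CNS replicate 2 was the higher CNS library, and it still lay below the lower dLN library.

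Tnfsf4, which encodes OX40L, was low in both tissues. Its libraries were at 0.262 and 0.391 FPKM in CNS (8 and 12 fragments) and at 2.39 and 2.83 FPKM in dLN (62 and 88 fragments). The tissues did not overlap, and the log2 ratio was -1.44 ± 0.15 (SE) at a limma adjusted p of 0.000822. Tnfsf4 passed the filter through dLN alone, which fixed its direction. The lower ligand RNA in CNS went along with lower levels of most, but not all, of 9 listed cytokine genes that PMA and ionomycin induce. Of these genes, 7 were called lower in CNS, against 37.2% of all genes, and 1, Ifng, higher. Csf2 did not pass, at 61.7 and 115 FPKM in CNS and at 133 and 51.3 FPKM in dLN (log2 ratio 0.03, limma adjusted p = 0.967). The paper proposes a terminally differentiated state of CNS cells from the fall of genes that include Il17a, which is on this list. Il2 was at 18.2 and 38.8 FPKM in CNS and at 5363 and 6176 FPKM in dLN. The part of stimulation or of cell state in the fall of the ligands was not tested.

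The 3 ligands that rose in CNS were Tnfsf10, Ltb and Cd70. Tnfsf10 encodes TRAIL, an inducer of apoptosis. It was at 25.7 and 22.4 FPKM in CNS and at 4.32 and 2.82 FPKM in dLN. Both CNS libraries stood above both dLN libraries. The mean level was 6.74 times that of dLN, and the log2 ratio was 2.47 ± 0.19 (SE) at a limma adjusted p of 0.000326. Tnfsf10 (Entrez gene 22035) lies on chromosome 3 from 27317077 to 27339665.

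Ltb encodes lymphotoxin β, which anchors lymphotoxin α on the cell surface. Its level was 331 and 428 FPKM in CNS and 153 and 95.5 FPKM in dLN. The CNS libraries were the higher ones without overlap, at 379 ± 68.7 FPKM (SD, n = 2) against 124 ± 40.7 FPKM (SD, n = 2). The log2 ratio was 1.63 ± 0.26 (SE) at a limma adjusted p of 0.00348, and over the alternative fits it lay between 1.29 and 1.97, with an adjusted p of at most 0.0487. Cd70, which encodes the ligand of CD27, was near the filter and passed it through CNS alone, which fixed its direction. It was at 1.04 and 1.57 FPKM in CNS (15 and 22 fragments) and at 0.330 and 0.482 FPKM in dLN (4 and 7 fragments). All 4 values were low and did not overlap between tissues. The log2 ratio was 0.70 ± 0.19 (SE) at a limma adjusted p of 0.0204. Without dLN replicate 1 it was 0.63 and did not pass, and its adjusted p lay between 0.0113 and 0.0846 in all fits.

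The remaining tested ligands did not pass. Lta, which encodes lymphotoxin α, was at 53.7 and 83.1 FPKM in CNS and at 101 and 73.4 FPKM in dLN. CNS replicate 2 lay between the dLN libraries. The log2 ratio was -0.36 with a 95% interval from -1.04 to 0.31 (limma adjusted p = 0.254). Tnfsf9, which encodes 4-1BBL, was at 22.6 and 28.9 FPKM in CNS and at 23.6 and 30.7 FPKM in dLN. Its tissues overlapped, an antisense gene (Gm11110) covers part of its exons, and the comparison ended with a log2 ratio of -0.07 and an interval from -0.54 to 0.40 (limma adjusted p = 0.736). Fasl encodes FasL, which kills cells that carry Fas. It was at 43.7 and 38.5 FPKM in CNS and at 47.5 and 58.9 FPKM in dLN. The dLN libraries were slightly the higher ones, and the log2 ratio was -0.36 with an interval from -0.71 to -0.0038 (limma adjusted p = 0.0629). Fasl passed as lower in CNS in 3 alternative fits, at -0.55 with the same FPKM sum per library, -0.55 for the highest transcript and -0.51 without dLN replicate 1. Its adjusted p lay between 0.0174 and 0.26 in all fits.

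**Figure D3:**
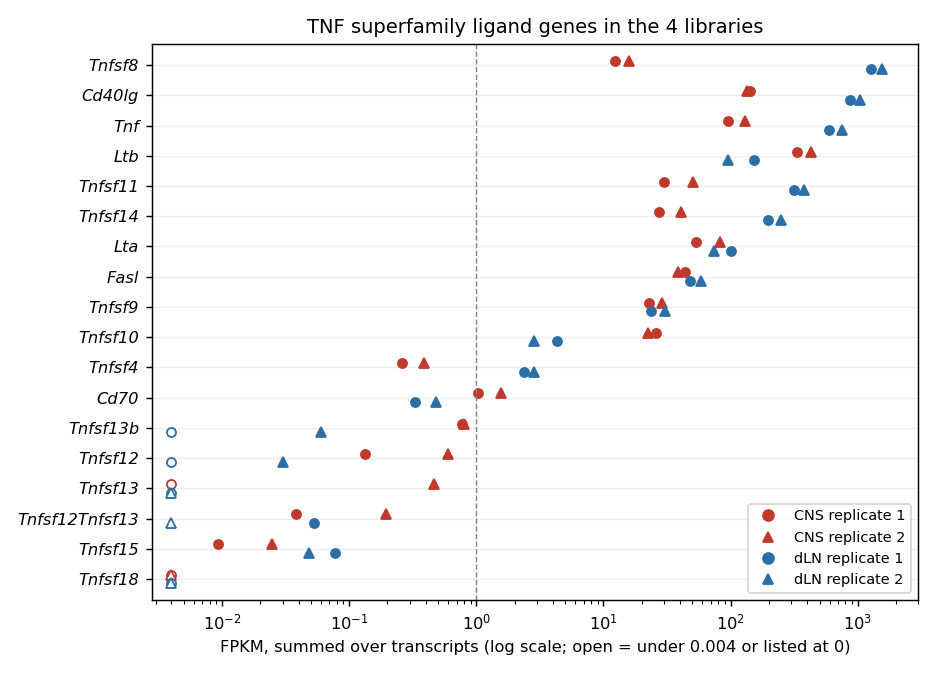
FPKM of the 18 ligand symbols in each library on a log axis, red for CNS and blue for dLN, with circles for replicate 1 and triangles for replicate 2. The dashed line marks 1 FPKM, and open symbols are values under 0.004 or listed at 0. Tnfsf8 shows the widest gap between tissues among ligands above 10 FPKM in both, while Lta and Tnfsf9 overlap.

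Lymphotoxin and TNF genes lie side by side on chromosome 17, and the most opposite neighbours of the family were among them. Ltb runs on the plus strand from 35194507 to 35196305, and 3061 bases further Tnf runs on the minus strand from 35199367 to 35202007. Lta follows from 35203165 to 35205351. Within a library, Ltb was 3.47 and 3.32 times Tnf in CNS but 0.26 and 0.128 times Tnf in dLN, all in FPKM. This ratio does not depend on the scaling of a library. The 250 bases before each start are shown because the genes moved in opposite directions, with motif matches in capitals (RefSeq, build GRCm38.p6, 5′ to 3′ on the strand of the gene). Ltb lies before chr17:35194507 on the plus strand and Tnf before chr17:35202007 on the minus strand.
Ltb: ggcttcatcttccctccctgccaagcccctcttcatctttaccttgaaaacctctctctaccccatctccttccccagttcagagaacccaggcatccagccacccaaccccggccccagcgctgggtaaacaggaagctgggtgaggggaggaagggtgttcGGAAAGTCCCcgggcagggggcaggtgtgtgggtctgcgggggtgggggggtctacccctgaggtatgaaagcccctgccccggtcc
Tnf: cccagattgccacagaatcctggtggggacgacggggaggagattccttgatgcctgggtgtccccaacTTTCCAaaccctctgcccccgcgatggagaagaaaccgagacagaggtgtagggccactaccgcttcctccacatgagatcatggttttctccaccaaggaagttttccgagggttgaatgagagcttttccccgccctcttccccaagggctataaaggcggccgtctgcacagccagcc
The capitals mark a match to the NF-κB consensus that begins 87 bases before the start of Ltb. They also mark a match to TGGAAA, a form of the NFAT site, read on the other strand 181 bases before the start of Tnf. The shorter NFAT core GGAAA was not searched. It occurs in both sequences, in Ltb within the marked NF-κB match and in Tnf at further unmarked places on the other strand. Neither sequence holds the AP-1 site TGANTCA. Motifs were searched on both strands. The same window holds the NF-κB consensus in 3.90%, TGGAAA in 18.6% and TGANTCA in 6.75% of 32851 promoters. Of the 31 members with a promoter entry, 3 held the NF-κB consensus, 7 TGGAAA and 6 TGANTCA in a listed window.

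Among the 19 tested receptors, 9 were lower in CNS, 6 were higher and 4 did not pass. Those called made up 78.9%, near the 74.9% of all genes. Lower calls were 47.4% against 37.2% of all genes, and higher ones 31.6% against 37.8%, shares that were not tested. The costimulatory receptors did not move together. Tnfrsf4 encodes OX40, a receptor of activated T cells, and was at 136 and 182 FPKM in CNS and at 847 and 954 FPKM in dLN. Both CNS libraries lay far below, with a log2 ratio of -2.51 ± 0.16 (SE) at a limma adjusted p of 0.00021. Tnfrsf18 encodes GITR, found on regulatory and activated T cells, and was at 195 and 247 FPKM in CNS and at 85.9 and 88.1 FPKM in dLN. Here CNS was the higher tissue without overlap, with a log2 ratio of 1.33 ± 0.13 (SE) at a limma adjusted p of 0.000703. These genes are neighbours on the plus strand of chromosome 4. Tnfrsf4 spans 156013695 to 156016589 and Tnfrsf18 begins 9752 bases after it, at 156026342. Tnfrsf18 was 1.44 and 1.36 times Tnfrsf4 in CNS and 0.101 and 0.0923 times Tnfrsf4 in dLN, in FPKM. The annotation places an antisense gene, Gm16008, over exons of Tnfrsf18, and without strand its reads cannot be told apart.

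Tnfrsf9 encodes 4-1BB, another receptor of activated T cells. It stood at 96.2 and 138 FPKM in CNS and at 375 and 318 FPKM in dLN. CNS was lower in both libraries, and the log2 ratio was -1.57 ± 0.20 (SE) at a limma adjusted p of 0.00156. Cd27, a receptor of naive and memory T cells, was at 16.6 and 18.7 FPKM in CNS and at 57.0 and 60.9 FPKM in dLN. Its replicates were close and the tissues well apart, with a log2 ratio of -1.69 ± 0.10 (SE) at a limma adjusted p of 0.000171. Tnfrsf8 encodes CD30, the receptor of CD30L. It was at 1.68 and 2.54 FPKM in CNS and at 19.7 and 14.0 FPKM in dLN, a log2 ratio of -2.52 ± 0.22 (SE) at a limma adjusted p of 0.000466. Tnfrsf14, which encodes HVEM, did not pass. It was at 13.3 and 16.3 FPKM in CNS and at 13.8 and 13.7 FPKM in dLN, with dLN between the CNS libraries and an interval of the log2 ratio from -0.23 to 0.40 (limma adjusted p = 0.533).

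The TNF receptors differed from each other. Tnfrsf1a encodes TNFR1, which carries a death domain, and was at 21.0 and 24.5 FPKM in CNS and at 9.76 and 7.72 FPKM in dLN. The CNS libraries were the higher ones, with a log2 ratio of 1.29 ± 0.14 (SE) at a limma adjusted p of 0.00106. Tnfrsf1b encodes TNFR2, which lacks a death domain, and was at 60.4 and 73.1 FPKM in CNS and at 68.3 and 60.5 FPKM in dLN. Its tissues overlapped, with a log2 ratio of 0.05 and an interval from -0.29 to 0.38 (limma adjusted p = 0.757). Tnfrsf1b remained the more abundant receptor gene of this pair, at 2.87 and 2.98 times Tnfrsf1a in CNS and 7.0 and 7.84 times in dLN.

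All 5 death-domain receptors of the list passed the test, as 74.9% of all genes did, 2 higher and 3 lower in CNS. Of these Tnfrsf21 passed the filter through dLN alone. Tnfrsf21 encodes DR6 and fell from 4.94 and 6.37 FPKM in dLN to 0.124 and 0.698 FPKM in CNS (9 and 51 fragments). Both CNS values were under 1 FPKM, and the log2 ratio was -2.26 ± 0.25 (SE) at a limma adjusted p of 0.000962. Tnfrsf10b encodes the mouse TRAIL receptor. It was at 0.969 and 1.29 FPKM in CNS and at 8.31 and 8.36 FPKM in dLN, a log2 ratio of -2.14 ± 0.12 (SE) at a limma adjusted p of 0.000164. Fas, at 18.1 and 21.4 FPKM in CNS and 30.6 and 34.4 FPKM in dLN, was the highest of these receptors in dLN. It fell by less, with a log2 ratio of -0.69 ± 0.12 (SE) at a limma adjusted p of 0.00486. Tnfrsf25 encodes DR3 and was at 19.8 and 25.1 FPKM in CNS and at 15.4 and 14.4 FPKM in dLN. The gap between tissues was narrow, with a log2 ratio of 0.55 ± 0.14 (SE) at a limma adjusted p of 0.0162. The call of Tnfrsf25 was lost without CNS replicate 2 (0.39), without dLN replicate 1 (0.59) and without dLN replicate 2 (0.51), and its adjusted p lay between 0.00526 and 0.0862 in all fits.

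Tnfrsf22, Tnfrsf23 and Tnfrsf26 form a cluster of related genes on chromosome 7, some of which encode decoy receptors of TRAIL. Tnfrsf22 was at 1.35 and 1.74 FPKM in CNS and at 7.54 and 7.98 FPKM in dLN. It was clearly lower in CNS (log2 ratio -1.79 ± 0.12, SE, at a limma adjusted p of 0.000259). Tnfrsf26, 8879 bases away, was at 10.8 and 9.39 FPKM in CNS and at 6.63 and 7.15 FPKM in dLN. It lay the other way, at a log2 ratio of 0.49 ± 0.11 (SE) at a limma adjusted p of 0.0116. Tnfrsf23 was at 0.931 and 1.2 FPKM in CNS and at 1.81 and 1.79 FPKM in dLN, with a log2 ratio of -0.44 ± 0.14 (SE) at a limma adjusted p of 0.0366. These calls were less stable than that of Tnfrsf22. Tnfrsf26 lost its call with the same FPKM sum per library (0.31), without CNS replicate 1 (0.40) and without dLN replicate 1 (0.44), with an adjusted p from 0.00604 to 0.0683 over all fits. Tnfrsf23 lost its call with the same upper quartile (-0.36), with a replicate block (-0.44), without dLN replicate 1 (-0.44) and without dLN replicate 2 (-0.45), with an adjusted p from 0.0146 to 0.12. As paralogs, these genes may share reads, and E230032D23Rik overlaps exons of Tnfrsf23 on the other strand.

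Receptor genes best known from B cells and myeloid cells were low. Cd40 was at 2.80 and 5.28 FPKM in CNS (89 and 167 fragments) and at 0.153 and 0.0321 FPKM in dLN (4 and 1 fragments). CNS was higher in each library, with a log2 ratio of 2.16 ± 0.27 (SE) at a limma adjusted p of 0.00157. It was 1.80 without CNS replicate 2, the library with most myeloid markers, and 2.53 without CNS replicate 1. Tnfrsf13c encodes the BAFF receptor and was at 1.61 and 1.08 FPKM in CNS (58 and 39 fragments) and at 0.0941 and 0.184 FPKM in dLN (3 and 7 fragments). It was higher in CNS (log2 ratio 1.03 ± 0.19, SE, at a limma adjusted p of 0.00547). Cd40 and Tnfrsf13c passed the filter through CNS alone, which fixed their direction, so these p-values are no support for it. The summed level of 11 B cell and plasma cell markers was 1.72 and 3.64 FPKM in CNS and 1.66 and 1.64 FPKM in dLN. Pax5 was listed at 0 in all 4 libraries, and Ms4a1 reached at most 0.0288 FPKM. Cd79b, a chain of the B cell receptor complex, was at 1.14 and 1.47 FPKM in CNS against 0.214 and 0.179 FPKM in dLN. It was called higher in CNS (log2 ratio 0.94, limma adjusted p = 0.00462). Sdc1, the other tested marker of this list, did not pass (log2 ratio -0.41, limma adjusted p = 0.214). The part of B cells in the level of Tnfrsf13c was not tested. Summed over 8 dendritic cell markers, CNS held 9.88 and 20.7 FPKM and dLN 14.0 and 5.03 FPKM, with Flt3, Clec9a and Cd209a at 0 outside CNS replicate 2. Among these markers Itgax, also found on activated T cells, was at 5.50 and 5.55 FPKM in CNS and at 0.26 and 0.138 FPKM in dLN. Zbtb46 went the other way, at 0.186 and 0.403 FPKM in CNS and at 1.04 and 1.03 FPKM in dLN. It was called lower in CNS (log2 ratio -0.66, limma adjusted p = 0.0183). Batf3 was at 2.21 and 4.90 FPKM in CNS and at 10.8 and 2.92 FPKM in dLN. CNS replicate 1 also held myeloid RNA that was listed at 0 in dLN, such as C1qb at 3.57 FPKM and C1qc at 2.70 FPKM. Cx3cr1, of the same list, was at 5.54 FPKM in CNS replicate 1 and at 4.03 FPKM in CNS replicate 2. It thus did not follow the summed myeloid level, which was higher in CNS replicate 2. The part of myeloid cells in the level of Cd40 was not tested.

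Tnfrsf13b, which encodes TACI, was at 1.35 and 1.24 FPKM in CNS and at 2.11 and 1.52 FPKM in dLN. It did not pass (log2 ratio -0.28, interval from -0.70 to 0.13, limma adjusted p = 0.161). Tnfrsf12a encodes Fn14, the receptor of TWEAK. It was at 2.29 and 4.73 FPKM in CNS and at 3.05 and 3.07 FPKM in dLN, so that the dLN libraries lay between those of CNS. Its log2 ratio of 0.10 (interval from -0.63 to 0.82, limma adjusted p = 0.766) rested on the CNS library used. It was 0.50 and called without CNS replicate 1, and -0.31 without CNS replicate 2, with an adjusted p from 0.0311 to 0.849 over all fits.

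**Figure D4:**
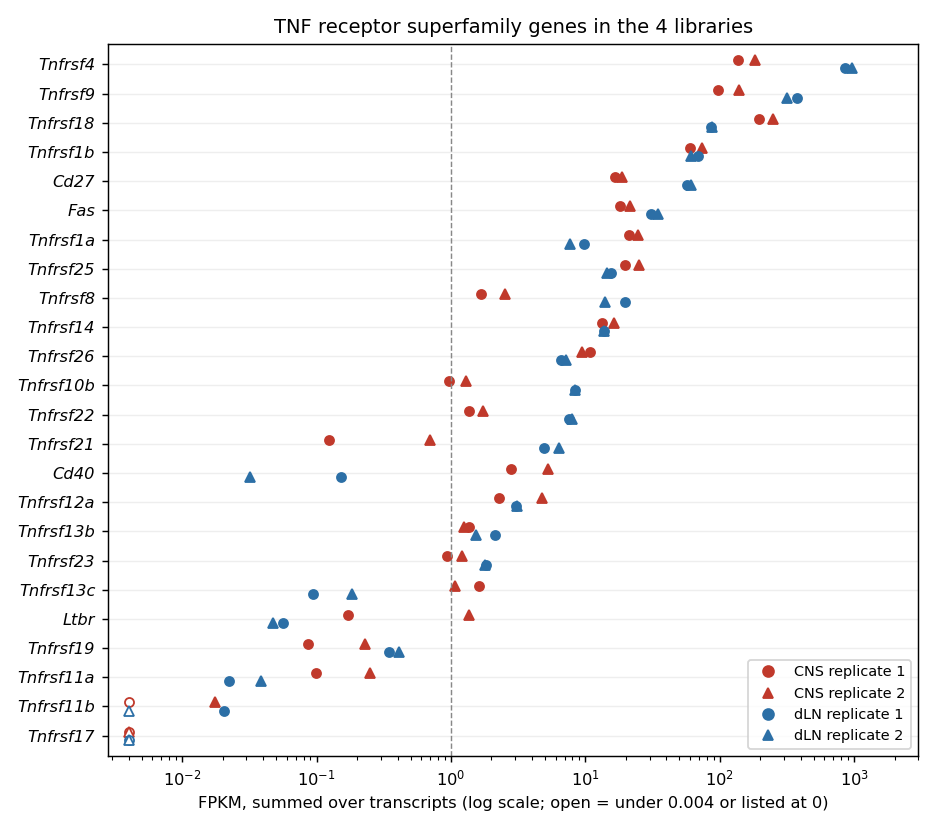
FPKM of the 24 receptor genes in each library on a log axis, with colours and symbols as for the ligands, the dashed line at 1 FPKM and open symbols for values under 0.004 or listed at 0. Tnfrsf4 and Tnfrsf18 lie in opposite order in the tissues, and Cd40 and Tnfrsf13c reach 1 FPKM in CNS alone.

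Ligands and receptors were then set side by side by their known pairing. Of 25 pairs listed, 12 had both genes tested. Both partners were lower in CNS for CD30L with CD30 (Tnfsf8 and Tnfrsf8) and for OX40L with OX40 (Tnfsf4 and Tnfrsf4). The partners were called in opposite directions in 4 pairs. With 37.8% of all genes called higher and 37.2% lower, nothing is read from these counts, and the filter fixed the direction of Cd40, Cd70 and Tnfsf4, each of which passed it through 1 tissue alone. Tnf was lower and Tnfrsf1a higher, Cd40lg lower and Cd40 higher, Cd70 higher and Cd27 lower, and Tnfsf10 higher and Tnfrsf10b lower in CNS. In the remaining 6 pairs at least one partner did not pass, among them FasL with Fas and 4-1BBL with 4-1BB. No pair had both partners higher. Whether a ligand acts on its receptor within these cells was not measured.

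A few genes were read as more than 1 RefSeq transcript. Tnfrsf9 has a start at 150920155 and another at 150927999 on chromosome 4. The transcript from the downstream start held 62.8% and 68.4% of the FPKM of the gene in CNS and 74.6% and 75.1% in dLN. In FPKM, this transcript was at 60.4 and 94.6 in CNS and at 280 and 238 in dLN, and that from the upstream start at 35.8 and 43.8 in CNS and at 95.4 and 79.2 in dLN. Both starts were thus read at lower levels in CNS. The 250 bases before each start are shown because their transcripts differ in share (RefSeq, build GRCm38.p6, plus strand, motif matches in capitals). They were chosen after the values had been seen.
Tnfrsf9 upstream start: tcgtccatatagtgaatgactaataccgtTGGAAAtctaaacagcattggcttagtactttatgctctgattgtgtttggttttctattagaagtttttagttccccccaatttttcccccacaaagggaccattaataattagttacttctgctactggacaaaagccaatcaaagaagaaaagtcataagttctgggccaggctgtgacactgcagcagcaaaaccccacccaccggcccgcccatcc
Tnfrsf9 downstream start: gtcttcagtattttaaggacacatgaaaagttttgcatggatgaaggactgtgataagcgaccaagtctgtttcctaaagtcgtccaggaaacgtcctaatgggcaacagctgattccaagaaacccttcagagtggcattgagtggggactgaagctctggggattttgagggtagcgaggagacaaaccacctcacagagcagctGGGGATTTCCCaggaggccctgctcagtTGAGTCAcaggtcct
Before the upstream start, TGGAAA begins at 221 bases. Before the downstream start lie overlapping matches to the NF-κB consensus at 43 and 42 bases and an AP-1 match (TGANTCA) at 15 bases. A match is a description of the letters and no evidence of binding.

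Tnfrsf25 also has separate starts, at 152115934 and 152116343 on chromosome 4. Its downstream start held 62.6% and 54.6% of the FPKM in CNS and 30.8% and 32.2% in dLN. In FPKM it was at 12.4 and 13.7 in CNS and at 4.74 and 4.65 in dLN, whereas the upstream start gave 7.41 and 11.4 in CNS and 10.6 and 9.80 in dLN. The downstream start was higher in both CNS libraries, and the upstream one overlapped between tissues. Fasl has transcripts of 1934 and 1888 bases. The shorter held 14.7% and 14.0% in CNS and 1.97% and 1.30% in dLN, at 6.41 and 5.41 FPKM against 0.938 and 0.767 FPKM. A Fas transcript of 555 bases held 20.6% and 34.2% of Fas in CNS and 18.9% and 21.0% in dLN, with overlap between tissues. These shares come from the authors' assignment of reads to overlapping transcripts and were not tested.

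**Figure D5:**
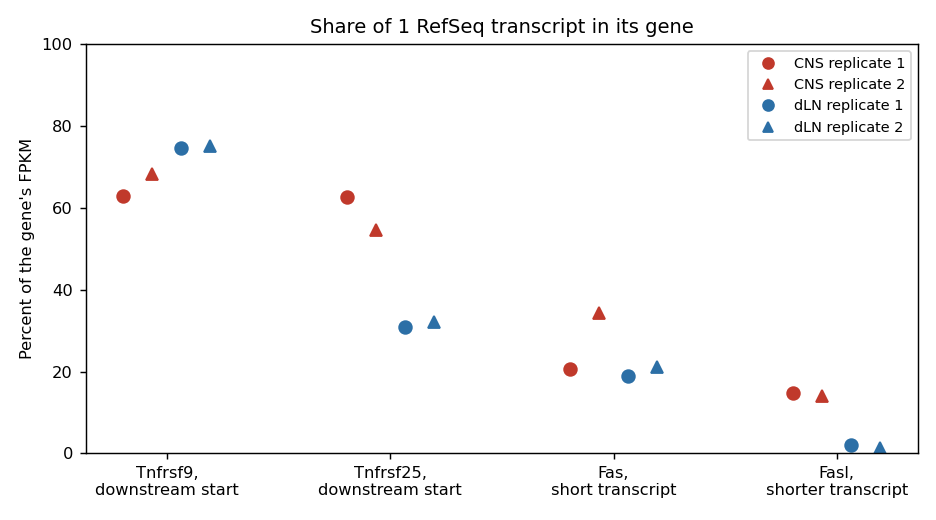
Percent of the FPKM of a gene held by 1 of its RefSeq transcripts in each library, red for CNS and blue for dLN, circles for replicate 1 and triangles for replicate 2. The downstream start of Tnfrsf25 and the shorter Fasl transcript hold a larger share in both CNS libraries than in either dLN library, and the downstream start of Tnfrsf9 a smaller one.

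The other 11 members had a mean under 1 FPKM in each tissue and were not tested. Tnfsf18, which encodes the ligand of GITR, and Tnfrsf17, which encodes BCMA, were listed at 0 in all 4 libraries. Tnfsf13b, which encodes BAFF, was at 0.772 and 0.797 FPKM in CNS (25 and 26 fragments), listed at 0 in dLN replicate 1 and at 0.0598 FPKM in dLN replicate 2 (2 fragments). Without the filter on low values it was called higher in CNS (log2 ratio 0.79, limma adjusted p = 0.00195), and it was the member that gained a call there. Ltbr, the receptor of lymphotoxin and LIGHT, was at 0.172 and 1.36 FPKM in CNS (7 and 55 fragments) and at 0.0566 and 0.0475 FPKM in dLN (2 fragments each). CNS replicate 2, with the highest sum of myeloid markers, stood apart, and the part of myeloid cells was not tested. Tnfsf12 was at 0.134 and 0.601 FPKM in CNS (4 and 19 fragments), and Tnfsf13 reached 0.461 FPKM (15 fragments) in CNS replicate 2 and under 1 fragment elsewhere. Tnfsf12 and Tnfsf13 share exons with their read-through symbol, so their reads could be split. The read-through symbol, Tnfrsf19, Tnfrsf11a, Tnfsf15 and Tnfrsf11b stayed under 1 FPKM in every library.

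A list of 65 further genes was examined, of which 57 were tested. It holds adaptors, caspases, ubiquitin enzymes and kinases downstream of the receptors, genes for ligand processing, and 8 family genes under other symbols. It held 20 genes called higher and 24 lower in CNS, 77.2% against the 74.9% of all genes. Of the 7 TRAF adaptors 6 were called lower in CNS, against 37.2% of all genes, and none was called higher. This share was not tested. Tank, a TRAF-binding regulator, was at 22.5 and 20.3 FPKM in CNS and at 112 and 126 FPKM in dLN (log2 ratio -2.42, limma adjusted p = 9.45e-05). Traf3, a brake on non-canonical NF-κB signalling, had a log2 ratio of -1.07. Traf2 was the adaptor that did not pass (log2 ratio -0.14, limma adjusted p = 0.228).

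Of 13 tested death-domain and caspase genes, 6 were higher and 4 lower in CNS, together 76.9% and near the share of all genes. Cflar, which encodes the caspase-8 inhibitor FLIP, was at 24.3 and 27.5 FPKM in CNS and at 119 and 125 FPKM in dLN (log2 ratio -2.19, limma adjusted p = 9.78e-05). Bid, a link from caspase-8 to mitochondria, fell too (log2 ratio -2.35). Mlkl, the effector of necroptosis, rose, with a log2 ratio of 1.57. Casp8 itself did not pass, at 42.1 and 39.9 FPKM in CNS and 34.2 and 24.2 FPKM in dLN (log2 ratio 0.49, interval from 0.039 to 0.95, limma adjusted p = 0.0514).

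Among the 15 tested ubiquitin ligases, deubiquitinases and their adaptors, 6 were higher and 4 lower in CNS, together 66.7% against 74.9% of all genes. Tnfaip3 encodes A20, an inhibitor of NF-κB, and was at 393 and 466 FPKM in CNS and at 139 and 154 FPKM in dLN. It rose together with another deubiquitinase gene, Cyld (log2 ratios 1.54 and 1.65), while Tnip3 and Tnip2, which encode partners of A20, fell (log2 ratios -2.72 and -1.64). Of the 14 kinases and their subunits, 7 were lower, such as Map3k5 (log2 ratio -1.85), Map3k8 (-1.24), Map2k7 (-1.05) and Map3k7 (-1.03). A further 5 were higher, such as Map4k2 (1.86) and Ikbke (1.52). The kinases called made up 85.7% against 74.9% of all genes, which was not tested. Of 6 tested genes for ligand processing, 3 were lower and 1 was higher, together 66.7% against 74.9% of all genes. Adam17, the protease that sheds TNF, was at 15.1 and 16.6 FPKM in CNS and at 25.8 and 22.4 FPKM in dLN, and Furin and Adam10 had log2 ratios of -1.51 and -1.17. Of the 8 family genes under other symbols, Rell1 and Relt were tested. Both were called higher, as 37.8% of all genes were. Rell1 was at 13 FPKM in each CNS library and at 1.68 and 1.24 FPKM in dLN.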

How the data were processed

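RNA of CD44+CD4 cells was measured in 4 libraries, 2 from CNS and 2 from dLN. After trimming and mapping, the authors deposited FPKM of 33819 RefSeq transcripts (build mm10), with a table for each tissue. The aligner and the FPKM program are not given in the sources used here. The CNS table names its libraries together in the header, and its columns were assigned in that order.

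FPKM was summed over the transcripts of a symbol, leaving out 565 transcripts without one (0.142% to 0.446% of the FPKM). Genes whose mean reached 1 FPKM in either tissue entered a limma 3.58.1 fit (R 4.3.3, lmFit and trended eBayes) of log2(FPKM + 1), two-sided, with tissue as the only term, at a Benjamini-Hochberg adjusted p of 0.05. An exact permutation test of 2 against 2 libraries cannot go below p = 0.333. The fit was tested on simulated data, where it recovered 127 of 200 changed genes with 8 false calls. It found 72 of 91 genes changed by a log2 size of 2 and 55 of 109 changed by 1. Far fewer genes changed in the simulation than were called here, so these rates may not carry over.

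Depth was taken as the number of fragments that put most low values of genes with a single transcript on whole multiples (tolerance 0.1 fragment, 92.3% to 94.7% of values against 20% by chance). It allowed a reduction of the transcript length by 140 to 190 bases. Fragments given beside a gene follow from it and are estimates. Starts are counted from 1. Strand and overlapping genes came from GENCODE M21, and promoters from RefSeq GRCm38.p6 (31 of 42 members matched). Other steps used Python 3.11.15 (pandas 2.3.3, matplotlib 3.10.9).

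Members, gene lists and tests were chosen with earlier results of these data known. The genes named are all members, with both values per tissue for those of at least 1 FPKM, pathway genes called at 1 log2 unit or more, and markers of the sorted and other cell types. Traf2, Casp8, Adam17, Relt, Ifng, Csf2, Il17a and the promoters of Tnfrsf9 were added after their values were seen. Alternatives covered the pseudocount, 3 scalings, the highest transcript, 2 filters, a replicate block, eBayes without trend and leaving out each library. Protein sequences were not used here.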

Additional observations from a re-analysis of the deposited data

How the results depend on the processing

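The numbers of members called, 9 higher and 15 lower in CNS, were 9 and 15 with a pseudocount of 0.1 or 5, median-of-ratios scaling or no trend. They were 8 and 16 when libraries were scaled to equal FPKM sums, 9 and 14 at an equal upper quartile, 9 and 16 for the highest transcript and 10 and 15 without a filter (Tnfsf13b gained its call), and 6 and 13 of 24 tested members with a mean of at least 5 FPKM. The count of higher calls ranged from 6 (without dLN replicate 1) to 9 with a library left out, that of lower calls from 14 to 15, and all genes called from 6596 to 7363. A fit that leaves out a library takes the lone library of that tissue to vary like the others. Scaling to the same sum moved the median log2 ratio by -0.18, and to the same upper quartile by 0.12. Of 427 refits of single members, 401 kept direction and side of the threshold.

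The 4 members that changed sign did not pass the test in the reported fit. Tnfrsf12a reversed to -0.0569 with the same sum, -0.10 for the highest transcript and -0.31 without CNS replicate 2, against a highest value of 0.497 with a library left out (without CNS replicate 1). Tnfrsf14 reversed to -0.0974 with the same sum and -0.0500 without CNS replicate 2, with a highest value of 0.226. Tnfrsf1b reversed to -0.15 with the same sum, -0.0899 without CNS replicate 2 and -0.0403 without dLN replicate 2, with a highest value of 0.182. Tnfsf9 reversed to 0.0601 with the same upper quartile, 0.10 without CNS replicate 1 and 0.11 without dLN replicate 2, with a lowest value of -0.253 with a library left out and of -0.261 with the same sum. The cause was not tested.

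Log2 ratios of low members depend on the pseudocount, which at 0.1 gave 4.43 for Cd40 and 2.59 for Tnfrsf13c, and at 5 gave 0.81 and 0.30. The libraries share the numbers 1 and 2, but replicate differences of the tissues had a correlation of 0.0933 across genes, so the numbers were not taken to pair them. With the replicate block 9 members were called higher and 14 lower, 42 pathway genes in place of 44 and 7828 genes in all in place of 7968, and the member that lost its call was Tnfrsf23 (-0.44).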
